A study of Mus musculus with 2 samples.

Results

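The genes that make, store, take up and export cholesterol were followed through the cell classes of the early postnatal mouse dentate gyrus. The set held 34 of the 32285 genes listed for both libraries, found by gene symbol: 18 genes of the synthesis pathway, 5 genes of its SREBP control, 4 genes of sterol transport and storage, 5 genes of the LXR and efflux arm and 2 genes of lipoprotein uptake. Each symbol named 1 row. The 18 synthesis genes do not cover every step of the pathway. The data were droplet 3' single-cell RNA counts of dissociated dentate gyrus at postnatal day 5, with 1 control library (wild type) and 1 Setdb1_cKO library, a conditional knockout of the H3K9 methyltransferase gene Setdb1. The sources used here give neither the Cre driver, nor the deleted exons, nor the number of animals. The series asks what Setdb1 does for the maintenance of cell states and for differentiation in this tissue. With 1 library per genotype there was no replicate to set a difference against, so genotypes were compared without a test, and every interval below is a 95% interval for counting error only. PCR-amplified molecules were counted as unique molecular identifiers (UMIs), and a level is given as CPM, the UMIs of a gene scaled by all UMIs of its class.

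Cholesterol does not cross from the blood into the brain in useful amounts, so brain cells make their own, and glia supply much of it to neurons on lipoproteins that carry apolipoprotein E. When membrane sterol is low, Scap escorts the SREBP transcription factors out of the endoplasmic reticulum and the synthesis genes are switched on, and Insig proteins hold that complex back when sterol is plentiful. Excess sterol is esterified by Soat1 for storage in droplets, while oxysterols activate the LXR receptors, which raise the exporters Abca1 and Abcg1, Apoe, and Mylip, a ubiquitin ligase that removes lipoprotein receptors from the surface.

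Promoter sequence is shown for 4 members, from RefSeq windows of GRCm38.p6 that end at the annotated start of the gene. Each line gives the 250 bases before the start, 5′ to 3′ on the strand of the gene, with capitals on every CCAAT box (CCAAT, or ATTGG for the other strand) and on the sterol regulatory element TCACNCCAC on either strand. A CCAAT box binds the factor NF-Y, a known partner of SREBP at sterol-controlled promoters. Hmgcs1 opens the mevalonate pathway, Idi1 makes an isoprenoid building block, Cyp51 demethylates lanosterol, and Soat1 stores sterol. Another gene annotation of the mm10 build starts Idi1 at 8885501 and Cyp51 at 4104746. Both starts lie inside the windows printed here and upstream of the CCAAT boxes marked for these genes. The windows lie at chr13:119690101-119690350 (+) for Hmgcs1, chr13:8885356-8885605 (+) for Idi1, chr5:4104698-4104947 (−) for Cyp51 and chr1:156474329-156474578 (−) for Soat1.
Hmgcs1: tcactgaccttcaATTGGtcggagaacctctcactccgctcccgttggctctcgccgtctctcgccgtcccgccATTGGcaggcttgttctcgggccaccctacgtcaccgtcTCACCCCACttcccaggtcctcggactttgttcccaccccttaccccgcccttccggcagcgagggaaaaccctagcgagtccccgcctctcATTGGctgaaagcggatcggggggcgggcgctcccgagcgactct
Idi1: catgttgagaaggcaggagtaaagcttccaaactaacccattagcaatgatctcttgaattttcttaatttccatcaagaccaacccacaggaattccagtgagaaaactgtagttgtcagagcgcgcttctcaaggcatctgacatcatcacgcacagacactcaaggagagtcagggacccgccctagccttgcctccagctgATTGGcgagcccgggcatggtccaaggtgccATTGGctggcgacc
Cyp51: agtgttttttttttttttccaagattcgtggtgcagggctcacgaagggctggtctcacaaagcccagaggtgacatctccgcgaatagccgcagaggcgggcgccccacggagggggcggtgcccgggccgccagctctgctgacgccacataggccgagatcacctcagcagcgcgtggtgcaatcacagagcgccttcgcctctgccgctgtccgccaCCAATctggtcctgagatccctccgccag
Soat1: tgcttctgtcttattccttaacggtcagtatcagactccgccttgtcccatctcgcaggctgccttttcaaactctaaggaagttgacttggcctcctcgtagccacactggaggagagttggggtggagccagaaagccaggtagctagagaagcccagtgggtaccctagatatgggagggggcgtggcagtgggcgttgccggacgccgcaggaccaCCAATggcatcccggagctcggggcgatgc

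A window was found for 28 of the 34 members. At least 1 CCAAT box lay in 14 of 15 synthesis genes with a window (93.3%, the exception being Acat2), in 4 of 5 SREBP control genes, in both transport and storage genes with a window, and in 0 of 4 LXR and efflux genes, against 37.5% of all 27025 genes with a window. The letters TCACNCCAC were found among the members in Hmgcs1 alone, in 1.22% of all windows. These matches describe letters within 250 bases and say nothing of binding.

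Cells were assigned to 16 classes by their scores on marker lists that held none of the members, and UMIs were summed per class and library. The control library gave 10822 cells with a median of 5938 UMIs and the Setdb1_cKO library 9349 cells with a median of 6976 UMIs, of which 9711 and 8051 received a class. The 2 libraries shared 68 barcodes, of which 39 were kept in both and 8 of those had the same class in both. Setdb1 itself was lower in Setdb1_cKO in radial glia (56.3 to 18.2 CPM, ratio 0.324, interval 0.264 to 0.395), astrocytes (ratio 0.38), pyramidal or hilar neurons (0.331) and neuroblasts (0.532). Its interval included 1 in microglia (51.3 to 40.7 CPM, ratio 0.793), oligodendrocyte progenitors, endothelial cells and fibroblasts. Whether the counted 3' end of Setdb1 lies in the deleted part is not known here. Xist, which is transcribed from an inactive X chromosome, gave 16 UMIs in control and 93965 in Setdb1_cKO, and the Y-linked Ddx3y gave 4184 and 0, so genotype and sex cannot be told apart for any member. Nsdhl and Ebp are X-linked.

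Every member was measured, meaning at least 30 UMIs over both libraries, in at least 2 classes, and 5 members were measured in all 16. Per class, the measured members ranged from 33 of 34 in astrocytes and neuroblasts to 9 in border macrophages. Members at least 1.5-fold lower in Setdb1_cKO were most frequent in pyramidal or hilar neurons, 16 of 32 measured where 11.4% of all measured genes were that much lower, with 1 member higher where 6.46% were. Astrocytes had 12 of 33 lower (5.96% of all measured genes) and 0 higher (7.33%), and glial intermediate progenitors 12 of 32 lower (8.57%) and 0 higher (7.25%). Microglia went both ways, with 5 of 23 members higher (6.83%) and 7 lower (11.4%). Oligodendrocyte progenitors had 6 of 30 lower (6.63%) and 0 higher (4.64%), Cajal-Retzius cells 6 of 31 lower (4.44%) and 0 higher (5.34%), and fibroblasts 5 of 29 lower (5.85%) and 1 higher (7.54%). Few members were apart in the remaining larger classes: 2 higher and 0 lower of 32 in radial glia (5.21% and 6.75%), 2 and 2 of 32 in intermediate progenitors (5.18% and 7.86%), 0 and 0 of 33 in neuroblasts (8.19% and 6.05%) and 0 and 3 of 32 in endothelial cells (4.45% and 6.1%). Border macrophages, with 9 measured members, are left out of these counts of members apart. Granule neurons (25 control cells), ependymal cells (19), GABAergic neurons (31) and mural cells (34 Setdb1_cKO cells, 41.2% of them in the mural cluster) were small, so their values are read with care below.

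Synthesis RNA was highest in astrocytes and next highest in radial glia in both libraries. The 18 synthesis genes summed to 3862 CPM in control astrocytes and to 2909 CPM in control radial glia, the stem cells of the dentate gyrus. Among the 12 larger classes, which leave out granule and GABAergic neurons, mural and ependymal cells, next stood pyramidal or hilar neurons at 2239 CPM, the excitatory neurons outside the granule layer, and then glial intermediate progenitors at 2011 CPM and oligodendrocyte progenitors at 1965 CPM, whose intervals overlapped. GABAergic neurons, over 31 control cells, stood at 2065 CPM. Intermediate progenitors (773 CPM) and neuroblasts (598 CPM), the neuron-producing line, were far lower, and microglia (390 CPM) and border macrophages (297 CPM) lowest. Among the same 12 classes, 15 of the 18 synthesis genes of the control library had their highest level in astrocytes, against 9 in astrocytes and 7 in radial glia in Setdb1_cKO. In Setdb1_cKO, the radial glial intervals of Idi1, Fdps, Sqle, Cyp51 and Dhcr7 overlapped those of astrocytes, while those of Fdft1 and Acat2 did not. The astrocyte intervals of Mvk, Pmvk, Mvd, Nsdhl and Sc5d likewise overlapped those of radial glia. The share of all genes highest in each class was not counted. At the level of single cells thinned to 2000 UMIs each, the median control astrocyte held 7 synthesis UMIs, the median radial glial cell 6 and the median neuroblast 1.

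**Figure D1:**
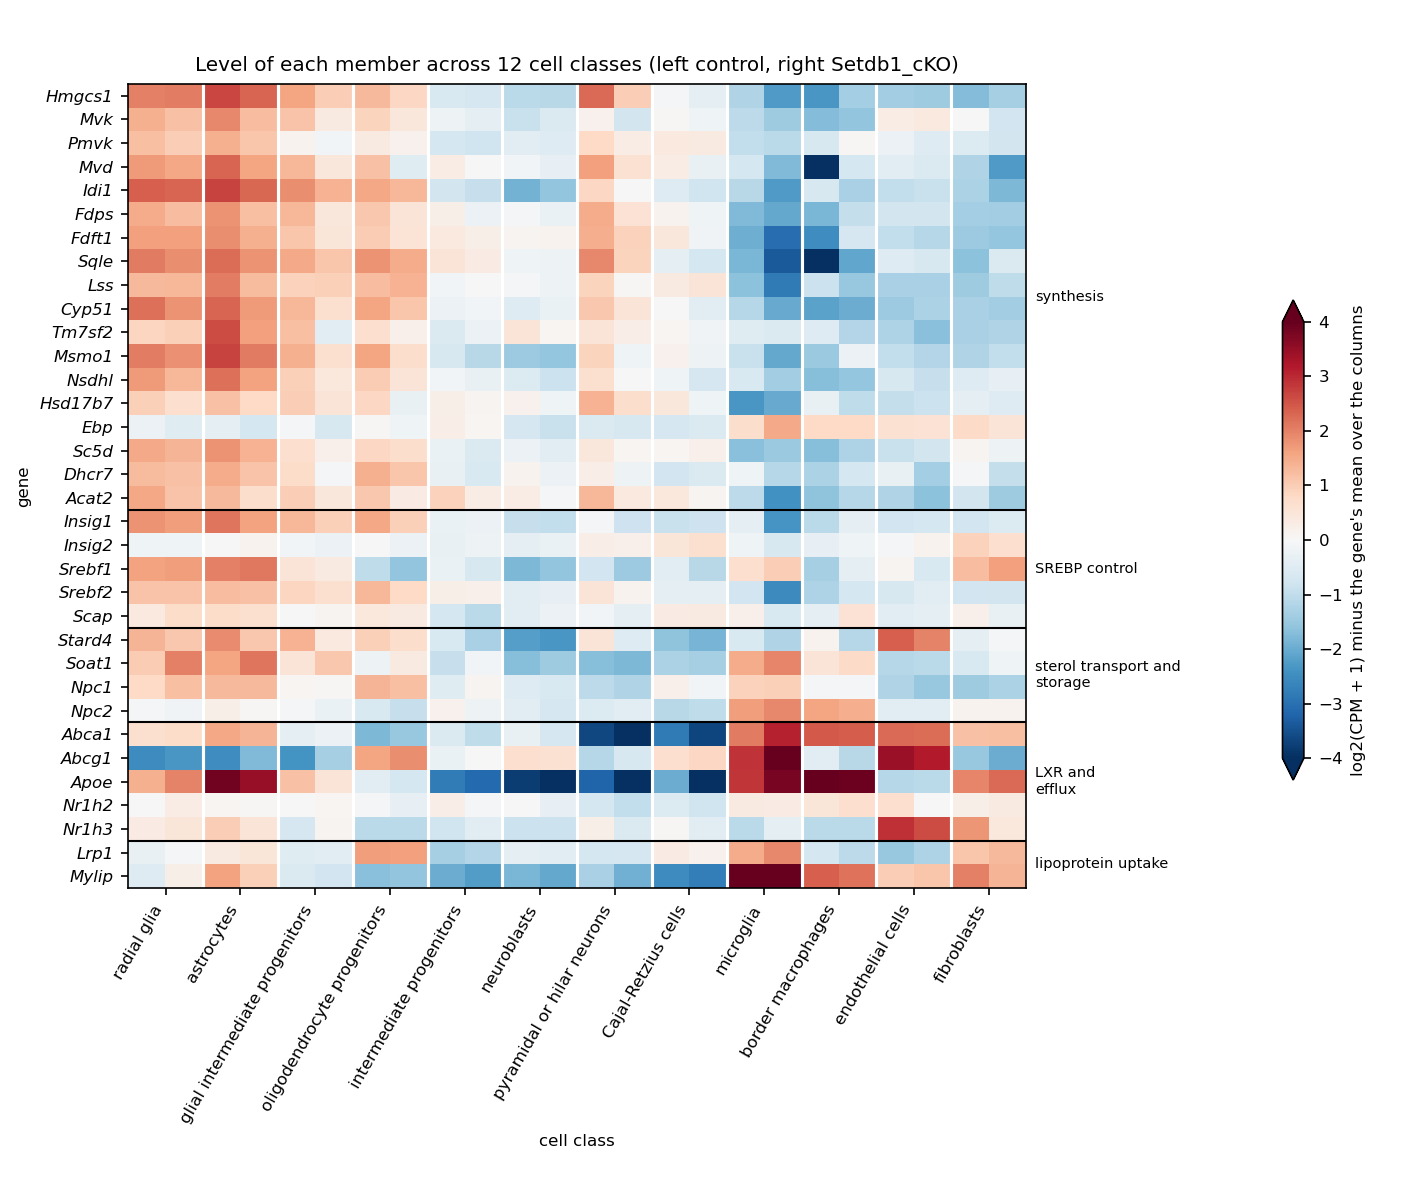
Level of the 34 members (rows, grouped by role) in the 12 larger cell classes, control left and Setdb1_cKO right within each class. Colour is log2(CPM + 1) minus the mean of that gene over all columns, so that red marks the classes where a gene is high. Synthesis genes other than Ebp are red in the glial classes and pyramidal or hilar neurons. Of the efflux genes, Apoe is reddest in border macrophages, microglia and astrocytes, and Abcg1 in microglia and endothelial cells.

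Ebp, the sterol isomerase late in the pathway, was highest outside the neural classes. Its highest control levels were in border macrophages (48.6 CPM, 18 UMIs) and fibroblasts (47.4 CPM), while microglia stood at 45.8, endothelial cells at 42.8 and astrocytes at 21.5 CPM. In Setdb1_cKO its highest level was in microglia, at 80.8 CPM.

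Astrocytes of the Setdb1_cKO library had less synthesis RNA than those of control. The sum went from 3862 to 2764 CPM, a ratio of 0.716 (interval 0.703 to 0.728). All 18 genes had a ratio below 1, where 48.5% of the 12435 measured genes did and the median gene stood at a log2 ratio of 0.01. Every interval of the 18 lay below 1 as well, and the share of all genes with such an interval was not counted. At least 1.5-fold lower were 9 of the 18 genes, against 5.96% of all measured genes, and none was 1.5-fold higher. The 18 ratios ran from 0.494 to 0.809.

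The members furthest below control in astrocytes came from all stretches of the pathway. Tm7sf2, a sterol reductase, went from 55.5 to 27.4 CPM (507 and 207 UMIs, ratio 0.494, interval 0.418 to 0.581). Lss, which closes the sterol rings by making lanosterol, went from 47.5 to 27.0 CPM (ratio 0.568, interval 0.479 to 0.673). In the early mevalonate part, Mvd, the decarboxylase, went from 82.3 to 48.7 CPM (ratio 0.592) and Mvk, mevalonate kinase, from 112 to 69.6 CPM (ratio 0.62). Among the abundant genes, Cyp51 went from 443 to 284 CPM (4045 and 2145 UMIs, ratio 0.641, interval 0.608 to 0.676) and Msmo1, a sterol methyl oxidase, from 406 to 263 CPM (ratio 0.648). The X-linked Nsdhl, a sterol dehydrogenase, had a ratio of 0.649, Acat2, the cytosolic thiolase, 0.652, and Fdps, which makes farnesyl diphosphate, 0.664. The remaining 9 genes were lower by less. Pmvk, which follows Mvk, went from 206 to 167 CPM (ratio 0.809, the highest of the 18), Sc5d, a late desaturase, from 133 to 99.4 CPM (0.745), and Hmgcs1, whose promoter is printed above, went from 1074 to 845 CPM (ratio 0.787, interval 0.762 to 0.812).

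Beside this, the marker lists of the class also differed between the libraries: the 12 astrocyte markers, none of them at 0, summed to 10775 CPM in control and 8528 CPM in Setdb1_cKO, the 12 radial glia markers, also all present, to 3038 and 3303 CPM, and the 8 cycling markers to 408 and 186 CPM. Within the cluster that held most astrocytes (990 and 517 cells) the synthesis sum went from 4023 to 2512 CPM, a ratio of 0.624. The part of these shifts in the synthesis difference was not tested.

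Radial glia differed less. The synthesis sum went from 2909 to 2622 CPM, a ratio of 0.901 (interval 0.885 to 0.919). Of the 18 genes, 14 had a ratio below 1, where 61.5% of the 12422 measured genes did, and 0 were 1.5-fold apart either way, against 5.21% of measured genes higher and 6.75% lower. Ratios ran from 0.754 to 1.06. Hmgcs1 was level, 679 against 697 CPM, with an interval of the ratio of 0.988 to 1.07 that included 1. Lower were Nsdhl (67.8 to 51.1 CPM), Cyp51 (404 to 308 CPM) and Acat2 (104 to 79.7 CPM).

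The early cells of the glial line showed the astrocyte direction. In glial intermediate progenitors, which express Egfr and Olig genes, the sum went from 2011 to 1305 CPM (ratio 0.649, interval 0.621 to 0.678). There 10 of 18 genes were at least 1.5-fold lower, against 8.57% of measured genes, among them Mvd (40.7 to 21.8 CPM), Fdps (224 to 123 CPM), Dhcr7, the last reductase of the pathway (35.3 to 19.7 CPM), and Hmgcs1 (507 to 331 CPM). This gate was mixed: its largest cluster held 28.9% of the control and 25.8% of the Setdb1_cKO cells. In it the 10 neuroblast markers, all present, summed to 1296 CPM in control and 1979 CPM in the knockout, the 12 astrocyte markers, 1 of them at 0 in each library, to 2109 and 1581 CPM, and the 12 radial glia markers, all present, to 3069 and 2737 CPM. Their part in the synthesis difference was not tested. In oligodendrocyte progenitors the sum went from 1965 to 1415 CPM (ratio 0.72, interval 0.674 to 0.769), and 5 of 17 measured genes were 1.5-fold lower, against 6.63% of measured genes. Those with 100 UMIs or more were Msmo1 (186 to 101 CPM, ratio 0.544), Fdps (191 to 127 CPM) and Acat2 (75.5 to 44.8 CPM), and the others were Mvd (50 and 10 UMIs) and Hsd17b7 (34 and 10 UMIs). Setdb1 itself did not differ beyond counting error in oligodendrocyte progenitors, at 53.9 and 53.3 CPM.

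**Figure D2:**
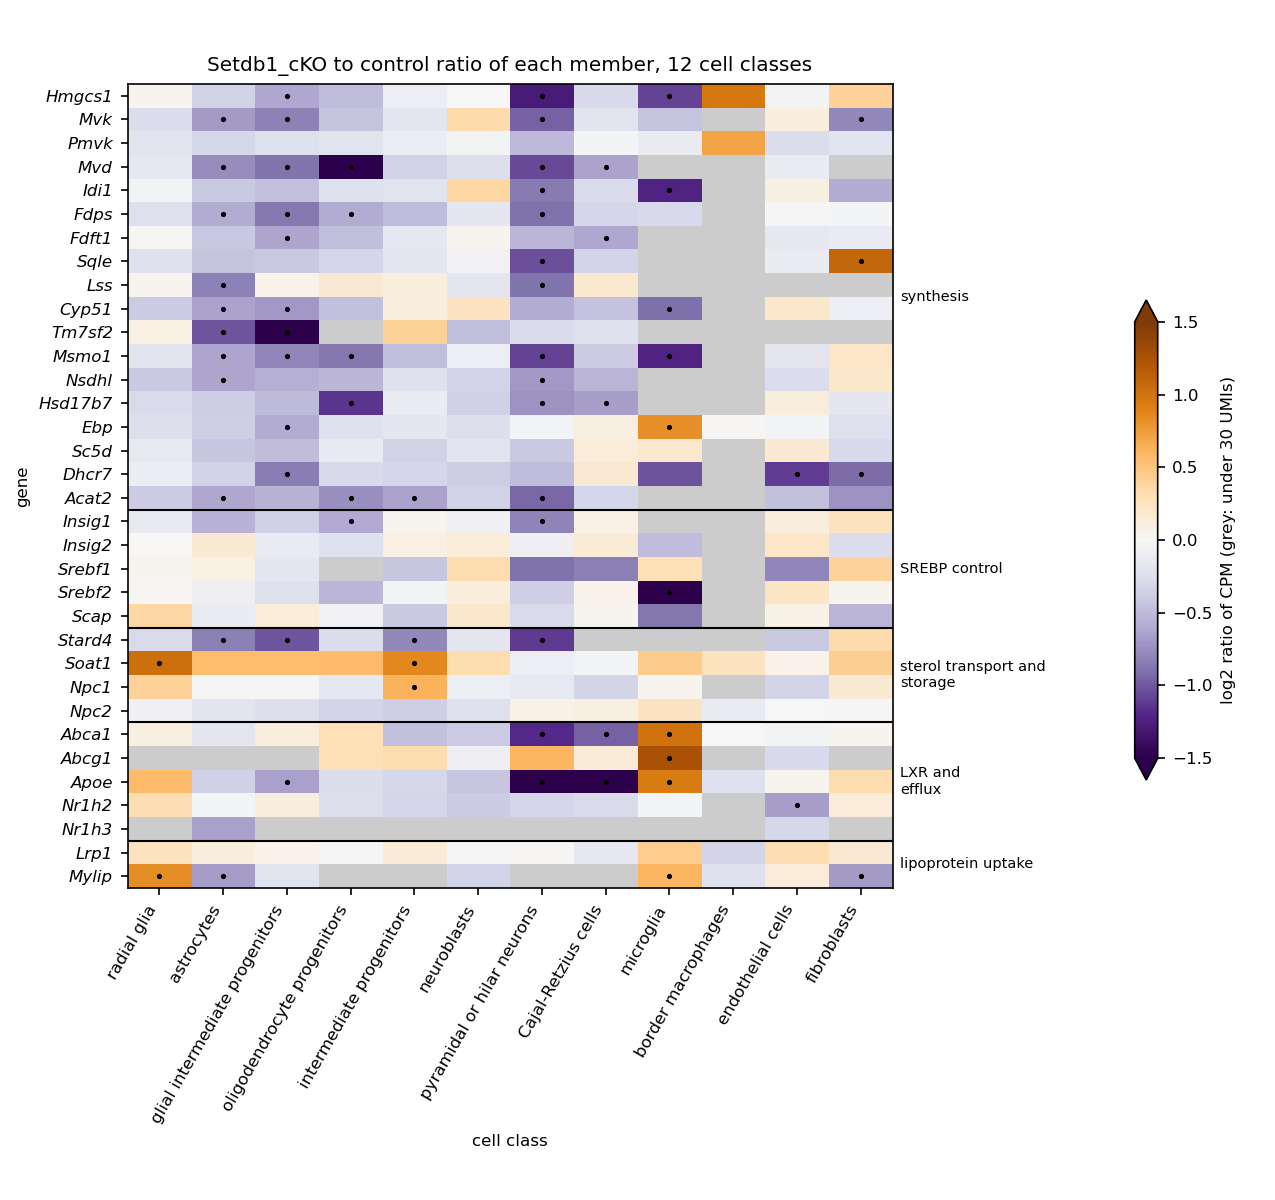
Log2 ratio of the level in Setdb1_cKO to that in control for the 34 members (rows) in the 12 larger classes (columns); grey cells hold under 30 UMIs over both libraries, and dots mark ratios of at least 1.5-fold whose interval left out 1. The synthesis rows are purple, meaning lower, through astrocytes, glial intermediate progenitors, oligodendrocyte progenitors and pyramidal or hilar neurons, and the microglia column is orange for Abca1, Abcg1 and Apoe.

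In intermediate progenitors and neuroblasts the synthesis sums were low in both libraries. Intermediate progenitors had 773 and 663 CPM (ratio 0.858, interval 0.825 to 0.893), with 1 of 18 genes 1.5-fold lower, where 7.86% of measured genes were. That gene was Acat2, at 67.8 and 43.3 CPM (635 and 237 UMIs, ratio 0.639, interval 0.548 to 0.743). Neuroblasts had 598 and 570 CPM (ratio 0.952, interval 0.929 to 0.977), with 0 of 18 genes 1.5-fold apart, where 8.19% of measured genes were higher and 6.05% lower. Most control neuroblasts (55.0%) lay in a different cluster from most Setdb1_cKO neuroblasts (51.3%). Over all kept cells, the first of these clusters held 2050 control and 32 Setdb1_cKO cells, and the second 63 and 1932. These clusters thus divided largely by library, and whether they hold different kinds of neuroblast was not tested. Granule neurons, the mature cells of this line, with 295 and 1623 synthesis UMIs, had 1200 and 874 CPM (ratio 0.729, interval 0.643 to 0.828), over 25 control cells.

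Pyramidal or hilar neurons showed the lowest synthesis ratio of the 16 classes. The sum went from 2239 CPM over 160 control cells to 1184 CPM over 361 Setdb1_cKO cells, a ratio of 0.529 (interval 0.512 to 0.546). All 18 genes had a ratio below 1, where 67.8% of the measured genes did, and 11 were at least 1.5-fold lower, where 11.4% of the measured genes were. The median gene of the class was itself lower, at a log2 ratio of -0.17, and with that median set to 0 the synthesis ratio was 0.595.

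Hmgcs1 led this difference: 801 CPM in control and 329 CPM in Setdb1_cKO (2187 and 2480 UMIs, ratio 0.411, interval 0.388 to 0.435). After thinning, 62.3% of control and 41.8% of Setdb1_cKO cells held an Hmgcs1 UMI (1 and 0 cells left out), and 80.6% and 90.6% did before thinning, at median depths of 15796 and 20432 UMIs. Msmo1 went from 115 to 54.3 CPM (ratio 0.472), Mvd from 50.2 to 24.2 CPM (0.481), Sqle, the squalene epoxidase, from 161 to 78.2 CPM (0.486), and Fdps from 251 to 134 CPM (0.536). The others past 1.5-fold were Mvk, Acat2, Lss, Idi1, Hsd17b7 and Nsdhl, at ratios of 0.514 to 0.616. Ebp was at 17.9 and 17.5 CPM. The 8 markers of the class, all present, summed to 1855 and 1609 CPM, with Tbr1 at a ratio of 0.50, and the neuroblast markers to 12241 and 10426 CPM. The 8 intermediate progenitor markers, 1 of them at 0 in control and 2 in Setdb1_cKO, summed to 640 and 360 CPM and the astrocyte markers, 1 of them at 0 in each library, to 479 and 345 CPM, and the part of these shifts was not tested. Within the cluster that held most of these cells (120 and 325) the synthesis ratio was 0.508.

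Cajal-Retzius cells, the reelin-secreting neurons of the marginal zone, had 874 and 721 CPM (ratio 0.824, interval 0.782 to 0.869), with 3 of 18 genes 1.5-fold lower, against 4.44% of measured genes. These were Mvd, Fdft1 (squalene synthase) and Hsd17b7. Outside the neural classes, the sum of microglia went from 390 to 280 CPM (425 and 440 UMIs, ratio 0.718), endothelial cells stood at 487 and 456 CPM and fibroblasts at 439 and 412 CPM, both with intervals that included 1. Border macrophages went the other way, from 297 to 451 CPM (110 and 147 UMIs, ratio 1.52, interval 1.18 to 1.96), with 3 of 18 genes measured. So did mural cells, from 898 to 1845 CPM (380 and 255 UMIs, ratio 2.05), over the mixed gate named above. Ependymal cells had a ratio of 1.24, with an interval that included 1.

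**Figure D3:**
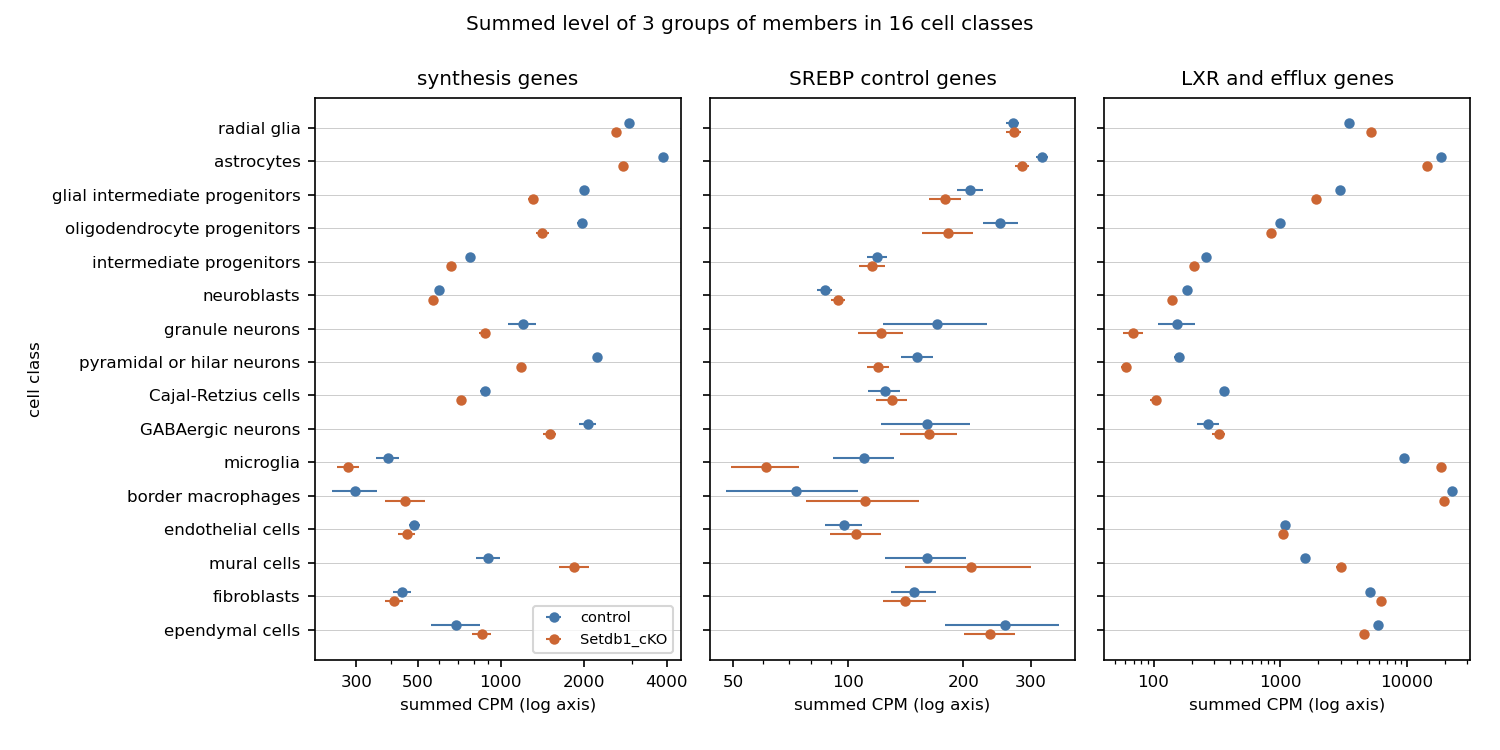
Summed level of the synthesis, SREBP control and LXR and efflux genes in the 16 classes, in CPM on log axes, control in blue and Setdb1_cKO in orange, with bars for the 95% counting interval. In the synthesis panel Setdb1_cKO lies left of control in the glial and neuronal classes and right of it in border macrophages, mural and ependymal cells; in the efflux panel microglia lie at 9520 and 18411 CPM.

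Other lipid genes were counted in the same way. The 12 fatty acid synthesis genes, several of them driven by SREBP as well, summed to 3027 and 2529 CPM in astrocytes (ratio 0.836, median log2 -0.18), with 11 of 12 below 1 (48.5% of all measured genes) and 2 at least 1.5-fold lower (5.96%): the desaturase Scd1 (100 to 53.0 CPM) and the elongase Elovl6 (95.1 to 62.4 CPM). In pyramidal or hilar neurons they summed to 876 and 678 CPM (ratio 0.774), with Fasn (121 to 78.6 CPM) and Acly (69.6 to 37.2 CPM) lower and Elovl5 and Mid1ip1 higher, where 11.4% of all measured genes were 1.5-fold lower and 6.46% higher. In radial glia their ratio was 0.98. The 22 related sterol genes had ratios of 1.16 in astrocytes and 0.923 in pyramidal or hilar neurons, with medians of -0.01 and -0.15 on the log2 scale. In astrocytes 1 of 19 measured was 1.5-fold lower and 1 higher, close to the shares of all measured genes (5.96% and 7.33%). The higher one was Cyp46a1 (8.98 to 15.5 CPM), the enzyme that turns cholesterol into a brain oxysterol.

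Synthesis genes were lower in cycling than in non-cycling radial glia. Cycling radial glia, with at least 2 cycling markers detected, had 2130 CPM against 3497 CPM in non-cycling ones of the control library, a ratio of 0.609 (interval 0.594 to 0.625), and 1850 against 3063 CPM in Setdb1_cKO, a ratio of 0.604. The same division among intermediate progenitors gave ratios of 1.08 (interval 1.03 to 1.13) in control and 1.06 (interval 0.988 to 1.13) in Setdb1_cKO. The ratio of Setdb1_cKO to control was 0.869 in cycling and 0.876 in non-cycling radial glia.

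The 5 SREBP control genes summed to 321 and 285 CPM in astrocytes (ratio 0.889, interval 0.84 to 0.94) and to 269 and 271 CPM in radial glia (interval of the ratio 0.945 to 1.07). None of the 5 was 1.5-fold apart in either class. Insig1, which retains SREBP and is itself a sterol-responsive target, was lower in several classes: in astrocytes it went from 109 to 74.7 CPM (997 and 564 UMIs, ratio 0.684, interval 0.616 to 0.759), in pyramidal or hilar neurons from 22.3 to 12.9 CPM (0.576) and in oligodendrocyte progenitors from 71.9 to 46.9 CPM (0.653). In glial intermediate progenitors it went from 61.0 to 47.4 CPM (ratio 0.777, interval 0.609 to 0.988). In radial glia it stood at 85.6 and 77.8 CPM, with an interval that included 1. Srebf2, the SREBP of cholesterol genes, was at 110 and 105 CPM in astrocytes and at 102 and 103 CPM in radial glia, both within counting error. Srebf1, the SREBP of fatty acid genes, was at 36.6 and 38.8 CPM in astrocytes, the highest of the 12 larger classes in both libraries. Insig2 stood at 34.1 and 38.1 CPM in astrocytes and at 30.6 and 30.7 CPM in radial glia. Scap stood at 31.0 and 28.7 CPM in astrocytes and at 23.9 and 30.5 CPM in radial glia, the latter with a ratio of 1.28 (interval 1.05 to 1.55).

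In microglia the SREBP control sum was lower and went from 110 to 61.1 CPM (120 and 96 UMIs, ratio 0.555, interval 0.42 to 0.732). Srebf2 there had 29 UMIs in control and 11 in Setdb1_cKO (ratio 0.263, interval 0.119 to 0.543). Insig1 had 20 and 6 UMIs, too few to count as measured.

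Of the transport and storage genes, Soat1 was higher in Setdb1_cKO in radial glia, astrocytes and both kinds of intermediate progenitor. Radial glia held 81.3 CPM in control and 165 CPM in Setdb1_cKO (786 and 1104 UMIs, ratio 2.03, interval 1.85 to 2.23). It was 1 of 2 members at least 1.5-fold higher there, beside Mylip. Intermediate progenitors held 20.4 and 36.9 CPM (191 and 202 UMIs, ratio 1.81, interval 1.48 to 2.22), where 5.18% of measured genes were 1.5-fold higher. Astrocytes held 121 and 178 CPM (ratio 1.47, interval 1.36 to 1.59), glial intermediate progenitors 57.7 and 85.2 CPM (1.48) and neuroblasts 11.5 and 14.3 CPM (1.25). Oligodendrocyte progenitors held 34.5 and 51.2 CPM from 48 UMIs in each library, with an interval of the ratio of 0.973 to 2.26 that included 1. Of 14 classes in which it was measured, 11 had a ratio above 1 and 6 an interval above 1. Pyramidal or hilar neurons (11.4 and 10.8 CPM) and Cajal-Retzius cells (15.7 and 15.4 CPM) were level within counting error. After thinning, 14.8% of control and 29.0% of Setdb1_cKO radial glia held a Soat1 UMI (37.2% and 67.7% before thinning), against 2.25% and 2.89% of neuroblasts, at median depths of 5936 and 7165 UMIs in radial glia and 5365 and 6261 in neuroblasts. Thinning left out 40 and 8 radial glia and 39 and 16 neuroblasts.

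The difference was present in both proliferative states of radial glia, with ratios of 2.01 in non-cycling and 1.96 in cycling cells, and at 2.01 in radial glia without an Aqp4 UMI. Among intermediate progenitors it was 2.20 in cycling and 1.45 in non-cycling cells. Npc1, which moves sterol out of the lysosome, was also higher in intermediate progenitors, at 29.3 and 45.2 CPM (ratio 1.54, interval 1.29 to 1.84), and in radial glia at 73.3 and 97.4 CPM (1.33). Npc2, its soluble partner, was at 257 and 246 CPM in radial glia and at 303 and 235 CPM in intermediate progenitors (0.774).

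Stard4, a sterol carrier under SREBP control, was lower in Setdb1_cKO in astrocytes, pyramidal or hilar neurons and both kinds of intermediate progenitor. It stood at 57.2 and 32.2 CPM in astrocytes (522 and 243 UMIs, ratio 0.563, interval 0.481 to 0.657), at 40.0 and 19.7 CPM in glial intermediate progenitors (0.493), at 21.6 and 9.95 CPM in pyramidal or hilar neurons (0.461) and at 9.19 and 5.30 CPM in intermediate progenitors (0.577). In oligodendrocyte progenitors it stood at 29.5 and 24.5 CPM, with an interval of the ratio that included 1. Its highest level was in endothelial cells, at 80.6 and 60.8 CPM.

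**Figure D4:**
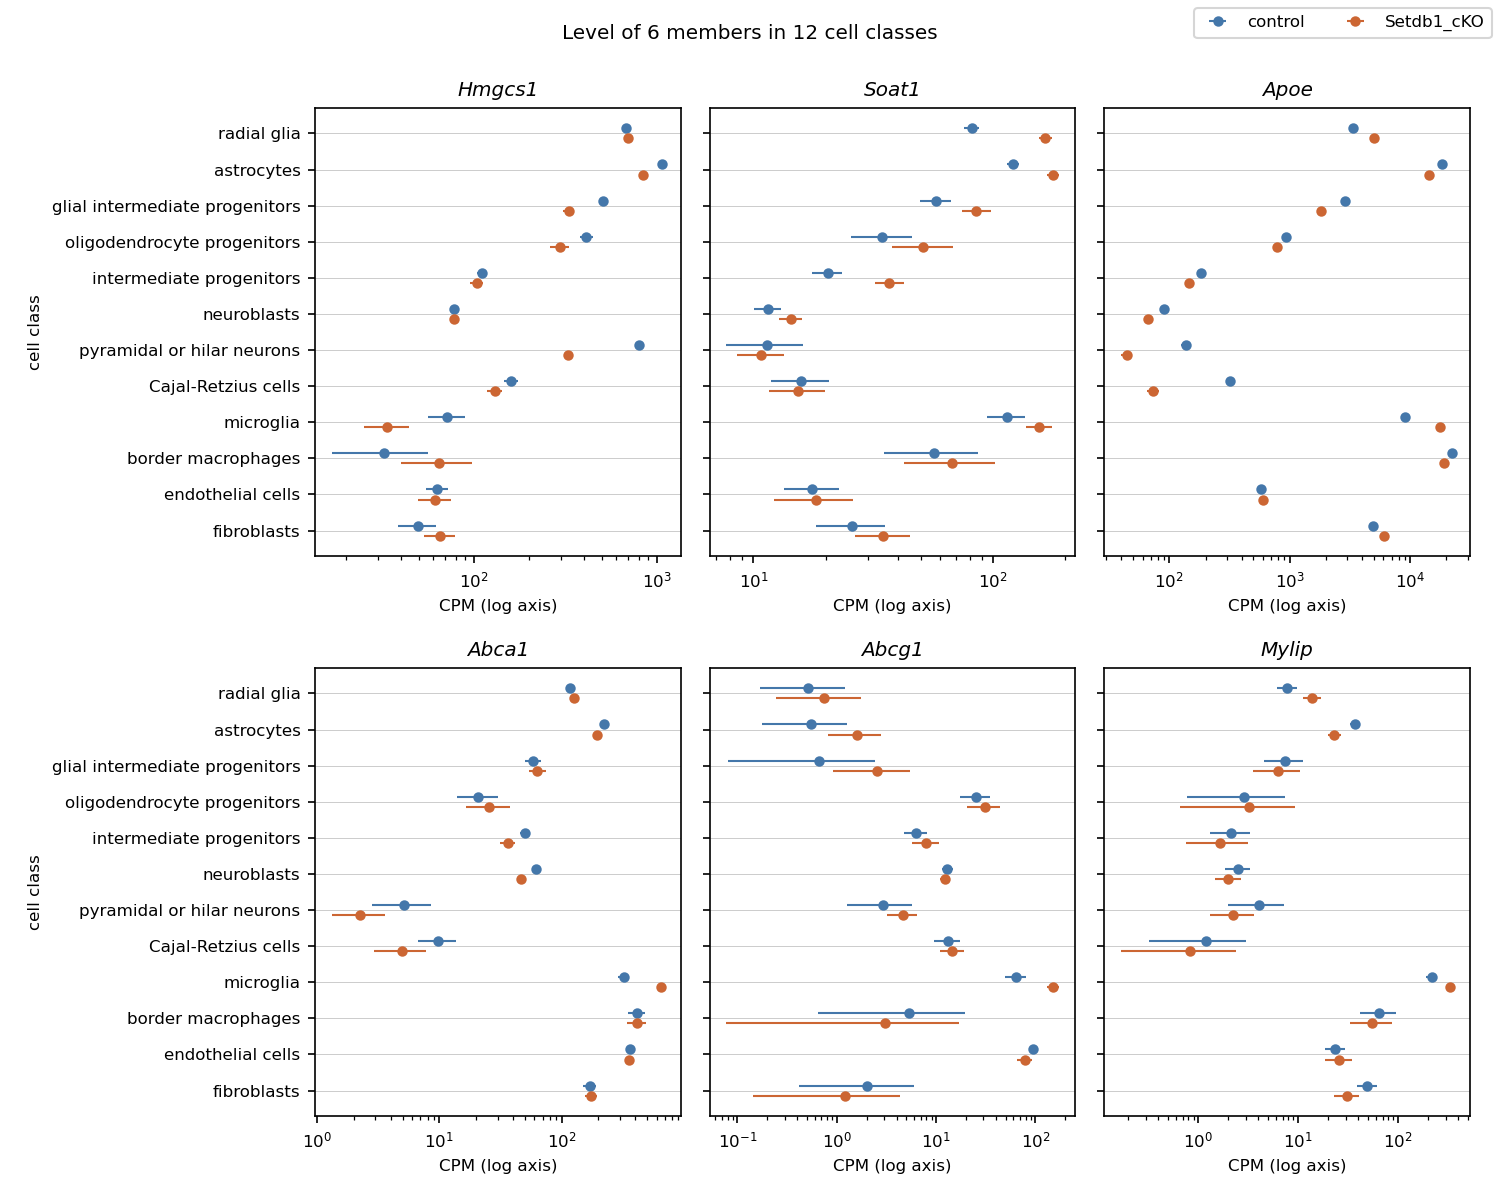
Level of 6 members in the 12 larger classes, in CPM on log axes, control in blue and Setdb1_cKO in orange, with 95% counting intervals. Soat1 lies right of control in radial glia (81.3 and 165 CPM), Hmgcs1 left of it in pyramidal or hilar neurons (801 and 329 CPM), and Apoe moves right in radial glia and microglia and left in astrocytes.

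Apoe, the lipoprotein protein that carries glial cholesterol, made up most of the efflux sum and went in different directions by class. In astrocytes it went from 18268 to 14232 CPM (ratio 0.779, interval 0.773 to 0.785), in glial intermediate progenitors from 2866 to 1826 CPM (0.637), and in radial glia from 3374 to 5020 CPM (32630 and 33565 UMIs, ratio 1.49, interval 1.47 to 1.51). The astrocyte and radial glial ratios fall short of 1.5-fold and are given because they were seen to differ. The medians over thinned cells moved the same way, from 35 to 26 UMIs of 2000 in astrocytes and from 6 to 10 in radial glia. Astrocyte and radial glial levels were closer together in Setdb1_cKO.

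In radial glia, astrocyte markers moved as well. The 12 markers, all present, summed to 3485 CPM in control and 3759 CPM in the knockout, with Aqp4 at a ratio of 2.10 and Slc6a11 at 0.46. The 12 radial glia markers, also all present, summed to 4644 and 4335 CPM, with ratios from 0.29 (Wnt8b) to 1.36 (Hopx). In radial glia without an Aqp4 UMI (939 and 412 cells) Apoe was at 2712 and 3287 CPM, a ratio of 1.21 (interval 1.18 to 1.24). The Apoe ratio was 1.48 in non-cycling and 1.19 in cycling radial glia. Cycling radial glia had less Apoe than non-cycling ones in both libraries, at ratios of 0.455 in control and 0.367 in Setdb1_cKO. Abca1 was level in radial glia, at 118 and 126 CPM, and somewhat lower in astrocytes, at 222 and 196 CPM (0.885).

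Microglia of the Setdb1_cKO library had more RNA of the efflux arm than those of control. The 5 genes summed to 9520 CPM over 180 control cells and 18411 CPM over 220 Setdb1_cKO cells (ratio 1.93, interval 1.89 to 1.98), and 3 of 4 measured genes were at least 1.5-fold higher, where 6.83% of measured genes were. Apoe went from 9110 to 17590 CPM (9939 and 27657 UMIs). Abca1, which loads sterol onto apolipoproteins, went from 322 to 646 CPM (351 and 1015 UMIs, ratio 2.01, interval 1.78 to 2.27). Abcg1, which exports sterol to lipoproteins, went from 63.2 to 151 CPM (69 and 237 UMIs, ratio 2.38, interval 1.82 to 3.16). Nr1h2, the LXR beta receptor, was at 24.7 and 24.2 CPM, and Nr1h3, LXR alpha, gave 0 and 1 UMI.

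The shift in Apoe ran through the class: after thinning, the 10th percentile over cells was 1 Apoe UMI in control and 7.3 in Setdb1_cKO, the median 9 and 28, and the 90th percentile 44 and 77.7. Border macrophages, the macrophages of the meninges and vessels, had the highest Apoe of all, 22331 and 19166 CPM, a ratio of 0.858 (interval 0.83 to 0.887), and their Abca1 stood at 413 and 411 CPM.

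The 2 genes grouped under lipoprotein uptake were higher in microglia too, though Mylip removes lipoprotein receptors from the surface. Mylip went from 216 to 328 CPM (236 and 516 UMIs, ratio 1.52, interval 1.3 to 1.78), and Lrp1, a large endocytic lipoprotein receptor, from 319 to 434 CPM (ratio 1.36, interval 1.19 to 1.55). Soat1 (114 to 156 CPM, 1.37) and Npc2 (877 to 1037 CPM, 1.18) had intervals above 1. Ebp went from 45.8 to 80.8 CPM (50 and 127 UMIs, ratio 1.76, interval 1.26 to 2.5). Against these, Hmgcs1 was lower, at 71.5 and 33.7 CPM (78 and 53 UMIs, ratio 0.471), and 5 of 10 measured synthesis genes were at least 1.5-fold lower, where 11.4% of measured genes were. Lipa, the lysosomal lipase that frees cholesterol from its esters, was higher among the related genes (125 to 194 CPM, 1.56).

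The markers of these microglia differed between the libraries. The 10 microglia markers, all present, summed to 17975 and 18122 CPM, with Tmem119 at a ratio of 0.30 and P2ry12 at 0.66. The 7 border macrophage markers, of which 1 was at 0 in control, summed to 342 and 669 CPM, and the cycling markers to 1061 and 644 CPM. Mrc1 was the largest border macrophage marker in both libraries (292 and 547 UMIs, ratio 1.30). Pf4 (52 and 352 UMIs, ratio 4.70) and Ms4a7 (17 and 99 UMIs, ratio 4.04) differed more. In microglia without any UMI of the border macrophage markers (74 and 90 cells) the efflux ratio was 2.11 (interval 2.02 to 2.21) and that of Abca1 2.21. The astrocyte markers in microglia summed to 229 CPM in control and 43.2 CPM in Setdb1_cKO.

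**Figure D5:**
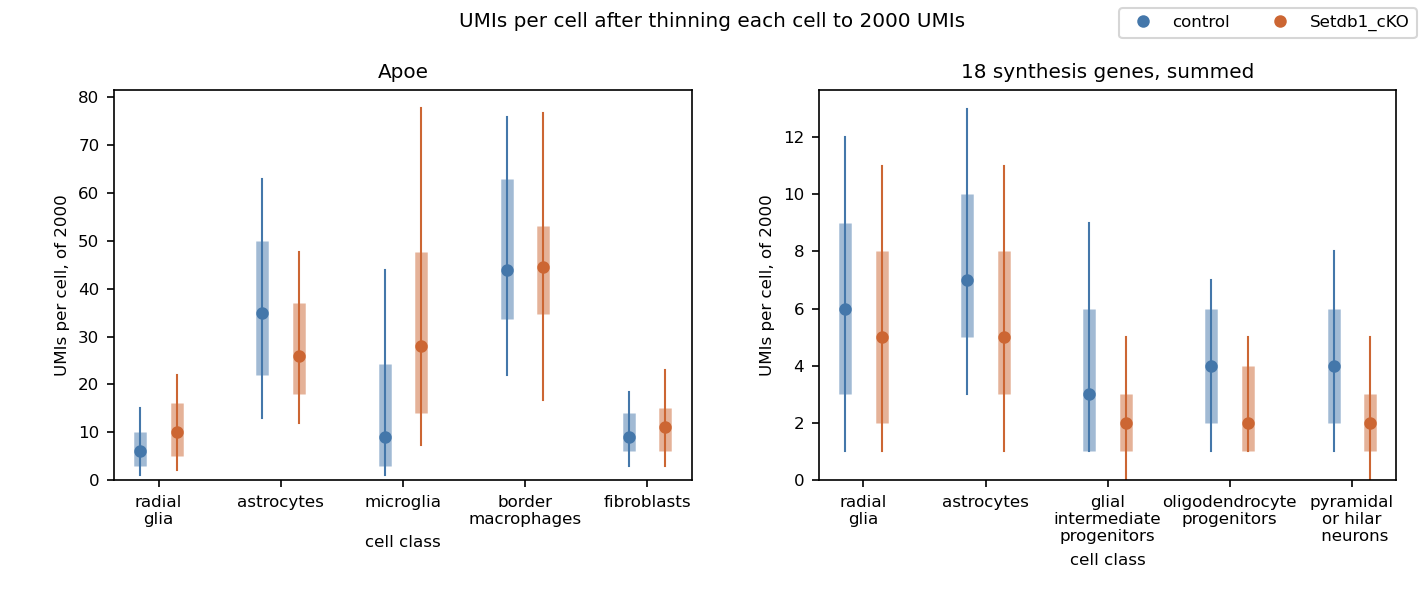
UMIs per cell of Apoe (left) and of the 18 synthesis genes summed (right) after each cell was thinned to 2000 UMIs. Points are medians over cells, thick bars the 25th to 75th percentile and thin lines the 10th to 90th percentile, for cells of 1 library each. Apoe medians move from 9 to 28 in microglia, from 6 to 10 in radial glia and from 35 to 26 in astrocytes.

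Apoe was low in neurons, where RNA free in the suspension can add UMIs, and its part was not tested. Neuroblasts held 89.9 and 66.8 CPM and pyramidal or hilar neurons 138 and 44.5 CPM (376 and 335 UMIs, ratio 0.323, interval 0.278 to 0.375), with 15.7% and 11.6% of the latter holding a UMI after thinning (51.9% and 49.0% before). Per UMI of the astrocyte markers, Apoe had 0.219 and 0.181 UMIs in neuroblasts and 0.288 and 0.129 in pyramidal or hilar neurons, against 1.70 and 1.67 in astrocytes. Cajal-Retzius cells held 320 and 73.5 CPM (1077 and 268 UMIs, ratio 0.23, interval 0.2 to 0.263). Their 12 astrocyte markers, 1 of them at 0 in each library, summed to 323 and 169 CPM, and Apoe per astrocyte marker UMI was 0.991 and 0.436. These UMIs sat in few cells: after thinning, 356 of 415 control cells and 348 of 386 Setdb1_cKO cells held none, and the highest single cells held 65 and 25.

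Vessels carried a part of the efflux arm as well. Endothelial cells had the highest control level of Abcg1, 95.6 CPM against 77.7 CPM in Setdb1_cKO, with an interval of the ratio that included 1, and, among the 12 larger classes, the highest Nr1h3, from 51 and 19 UMIs. Nr1h2 was lower there, at 31.1 and 19.4 CPM (ratio 0.625, interval 0.405 to 0.941). Apoe was level there, at 579 and 596 CPM, and so was Abca1, at 362 and 356 CPM. Abcg1 gave 5 UMIs in radial glia of each library, and 5 and 12 in astrocytes.

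Mylip had opposite directions in radial glia and astrocytes. In radial glia it was at 7.76 and 13.8 CPM (75 and 92 UMIs, ratio 1.77, interval 1.29 to 2.44), and in astrocytes at 36.8 and 23.0 CPM (336 and 174 UMIs, ratio 0.626, interval 0.518 to 0.754). Fibroblasts had a ratio of 0.62. Lrp1 was at 93.3 and 111 CPM in radial glia (1.19), at 146 and 159 CPM in astrocytes (1.09) and at 86.7 and 85.9 CPM in neuroblasts, and its highest control level was in oligodendrocyte progenitors, at 367 CPM.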

How the data were processed

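The authors deposited 1 count matrix per library, whole UMI counts for each gene in each barcode, which the file headers credit to Cell Ranger 7.1.0. The submitters' processing notes also name the mm10 build and Seurat. Neither the gene annotation, nor intron counting, nor the way cells were called is given in the sources used here. Per the labels' protocols, about 20000 cells were loaded and 10000 aimed for per library. The libraries held 14397 (control) and 12060 (Setdb1_cKO) barcodes with 82393428 and 87845965 UMIs.

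Barcodes below 1000 UMIs or 500 genes, or above 10% mitochondrial UMIs, were dropped. Scrublet (scanpy 1.11.5, expected rate 8%) marked 5.32% and 6.31% of scored barcodes as doublets, which were removed. A cell took the class with the highest mean z-score (clipped at 3) over its markers, if at least 3 markers were detected and the lead was at least 0.1; the rule was set after seeing the data. Leiden clusters (leidenalg 0.10.2) made without the members served as an alternative. In radial glia 183 and 146 cells led by under 0.2.

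UMIs were summed per class and library. Intervals of ratios were exact and conditional on the summed Poisson counts, those of shares Clopper-Pearson (scipy 1.17.1); the ratio code was tested on simulated data. Log2 ratios used a pseudocount of 0.5 UMI. A gene counted as measured with 30 UMIs over both libraries. Values are given for members with 100 UMIs and a ratio of 1.5-fold whose interval left out 1, or for the highest class; further members are named where a comparison turns on them. The members and lists were chosen with earlier results of these data known.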

Additional observations from a re-analysis of the deposited data

Results flagged for a closer look

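Mylip, Apoe, Hmgcs1 and Ebp were each at least 1.5-fold higher in Setdb1_cKO in one class and at least 1.5-fold lower in another, with intervals that left out 1 in each. The share of all genes that met the same rule was not counted, so these members are not shown to be unusual. With 1 library per genotype the difference between classes was not tested.

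Mylip had ratios of 1.77 in radial glia and 1.52 in microglia, and of 0.626 in astrocytes and 0.62 in fibroblasts.

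Apoe had ratios of 1.93 in microglia and 1.99 in mural cells, and of 0.637 in glial intermediate progenitors, 0.376 in granule neurons, 0.323 in pyramidal or hilar neurons and 0.23 in Cajal-Retzius cells. The granule neuron value rests on 31 control UMIs.

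Hmgcs1 had ratios of 2.64 in mural cells and 1.70 in ependymal cells, both small classes, and of 0.411 in pyramidal or hilar neurons, 0.471 in microglia and 0.652 in glial intermediate progenitors.

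Ebp had ratios of 1.76 in microglia and 0.662 in glial intermediate progenitors.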

How the results depend on the processing

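Each alternative is a ratio of Setdb1_cKO to control unless stated. No paired analysis was possible because each genotype had 1 library and no replicate number. Of the class sums and single genes recomputed, the only one whose direction changed under an alternative run was the efflux sum of granule neurons. It was 0.446 in the main run, over 25 control cells, and 1.21 with doublets kept. The synthesis sum of astrocytes ranged from 0.624 to 0.821, that of pyramidal or hilar neurons from 0.508 to 0.602, that of radial glia from 0.82 to 0.948, the efflux sum of microglia from 1.85 to 2.26 and Soat1 in radial glia from 1.96 to 2.21. Subsets of cells and the values for microglia, pyramidal or hilar neurons and single genes were chosen after seeing the data.

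With classes taken from clusters, synthesis was 0.866 in neuroblasts and 0.642 in astrocytes, and efflux 1.55 in radial glia, 0.851 in neuroblasts, 0.996 in intermediate progenitors, 0.926 in granule neurons, 0.841 in astrocytes and 1.85 in microglia. Under the stricter cell filter, synthesis was 0.925 in radial glia and 0.821 in astrocytes, and efflux 1.34 in radial glia, 0.745 in intermediate progenitors, 0.288 in granule neurons, 0.799 in astrocytes and 2.06 in microglia. With doublets kept, efflux was 0.871 in intermediate progenitors, 0.764 in astrocytes and 1.86 in microglia. With cells thinned to 2000 UMIs, synthesis was 0.884 in radial glia, 0.889 in granule neurons and 0.599 in pyramidal or hilar neurons, and efflux 1.52 in radial glia, 0.878 in intermediate progenitors, 0.768 in astrocytes and 2.26 in microglia. As a mean of per-cell CPM, synthesis was 0.921 in neuroblasts and 0.602 in pyramidal or hilar neurons, and efflux 0.763 in astrocytes and 2.01 in microglia.

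With the median of all genes set to 0, synthesis was 0.948 in radial glia and 0.595 in pyramidal or hilar neurons, and efflux 1.55 in radial glia, 0.775 in astrocytes and 2.04 in microglia. Scaled without mitochondrial, ribosomal protein and haemoglobin genes, synthesis was 0.921 in radial glia, 0.983 in neuroblasts and 0.586 in pyramidal or hilar neurons, and efflux 1.503 in radial glia and 0.793 in astrocytes. Without the member of highest level, synthesis was 0.864 in radial glia, 0.688 in astrocytes and 0.594 in pyramidal or hilar neurons, and efflux 1.10 in radial glia, 0.757 in granule neurons, 0.894 in astrocytes and 2.004 in microglia.

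In cells of the main cluster, synthesis was 0.508 in pyramidal or hilar neurons and 0.624 in astrocytes, and efflux 0.808 in astrocytes. In radial glia without an Aqp4 UMI, synthesis was 0.82 and efflux 1.20, in non-cycling radial glia synthesis was 0.876, and in microglia without a border macrophage marker UMI efflux was 2.11. With at least 3 cycling markers, the cycling to non-cycling ratio of synthesis in control intermediate progenitors was 1.02. The share of genes at least 1.5-fold apart was 32.1% and 7.04% in radial glia with at least 1 and at least 100 UMIs, 34.9% and 8.11% in astrocytes, 58.4% and 18.4% in granule neurons, 37.2% and 7.99% in intermediate progenitors, and 35.6% and 9.46% in neuroblasts. The causes of these shifts were not tested. Depth limits Nr1h3 in most classes, Abcg1 in radial glia and astrocytes, and most synthesis genes in border macrophages.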
